A study of Mus musculus with 30 samples.

Results

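Tmem86b and 4 other genes of plasmalogen metabolism were followed through the epithelium of the mouse small intestine, over its fractions and with and without an aryl hydrocarbon receptor (AHR) ligand. The members were taken by symbol from the deposited gene counts: the lysoplasmalogenases Tmem86b and Tmem86a, and Far1, Gnpat and Agps of ether lipid synthesis. All 5 are among the 54146 genes of the table, with 1 row each, and all 5 passed the filter on low counts in every comparison. Tmem86b was picked because it was higher with the ligand in fractions F1 to F4, so its values in those comparisons, and in others that use the same libraries, are given as a description, with no test.

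Plasmalogens are membrane phospholipids that carry an ether-linked chain with a vinyl ether bond. Their synthesis begins in the peroxisome, where GNPAT acylates dihydroxyacetone phosphate and AGPS exchanges the acyl chain for a fatty alcohol that FAR1 or FAR2 supplies. It is completed in the endoplasmic reticulum, where the head group is added and the vinyl ether bond is formed. After a phospholipase has removed the other chain, the lysoplasmalogenases TMEM86A and TMEM86B cut the vinyl ether bond of the remaining lysoplasmalogen and release a fatty aldehyde. The intestinal epithelium is renewed from crypts, and its cells mature as they move up the villus.

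The mice were female C57BL/6J of 8 to 10 weeks. Titles of their libraries begin with WT, read here as wild type, and the labels name no genetic change. The mice ate the semi-purified diet AIN93G for 1 week. This diet holds no dietary AHR agonists. By gavage they then received corn oil alone (vehicle) or 10 µg indolo[3,2-b]carbazole (ICZ), an AHR agonist, in corn oil, and the tissue was taken after 12 h. Epithelium was released from each mouse with EDTA in 5 successive fractions, F1 to F5, whose place on the crypt-villus axis the labels do not state further. Each fraction gave a 3' end RNA library: 15 from 3 vehicle mice and 14 from 3 ICZ mice, of which replicate 3 has no F1 library analysed here. The labels do not say that mice were pooled, and the 5 fractions of a replicate number were taken as 1 mouse.

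The 29 assigned libraries held 4359670 to 7819840 reads on genes. Cyp1a1, the classical AHR target, had 4 reads in all 15 vehicle libraries together and 53 to 596 reads in each ICZ library. Epithelial markers were high in every library, with 7 of 7 detected and a summed level of 3665 to 6556 CPM (reads of a gene per 1000000 reads on genes, after scaling). Muc2, the mucin that defines goblet cells, was at 0 reads in all of them. The other AHR targets checked were mixed. Median CPM over the vehicle and the ICZ libraries was 0 and 2.48 for Cyp1a2 and 11.9 and 18.0 for Nqo1. It was not higher with ICZ for Ahrr, at 0.586 and 0.280, or for Tiparp, at 63.0 and 60.5. Ahrr was near the floor, with 0 to 9 reads per vehicle library and 0 to 6 per ICZ library. ICZ replicate 1 has an F5 library that stands apart: its 10 leading genes held 54.3% of all reads on genes, where the median library had 26.8%. The values of Tmem86b in F5 are also given without it.

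In GRCm38 with the GENCODE M21 annotation, Tmem86b (ENSMUSG00000045282.7) occupies chr7:4628040-4631422 on the minus strand. An antisense gene, Gm44877 (chr7:4626978-4630544, plus strand), overlaps one of its exons at chr7:4630318-4630482. The overlap is near the start of Tmem86b and away from its 3' end, but near the 3' end of Gm44877. These libraries read 3' ends, and the body of Gm44877 also spans the 3' end of Tmem86b. The nearest gene upstream, Ppp6r1 (chr7:4631495-4659019), is on the same strand, and its 3' end lies 73 bases from Tmem86b. Tmem86a lies at chr7:47050601-47054777, Far1 at chr7:113513834-113571511, Agps at chr2:75832177-75931350 and Gnpat at chr8:124863033-124890057, all on the plus strand. The antisense gene Far1os overlaps Far1 and had at most 4 reads in any library. At its start Gnpat overlaps 2810004N23Rik and Gm16163. The strand setting of the counting is not given in the sources used here, so reads of a gene and its antisense partner cannot be told apart.

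The stretch before the annotated start is shown for the 2 lysoplasmalogenases because one was picked for its level under an AHR ligand and the other is its closest relative among the members. The capitals mark GCGTG, the core letters bound by AHR and its partner, or the same letters read on the other strand (CACGC). RefSeq (GRCm38.p6) gave the sequences for all 5 members. Each is written 5' to 3' on the strand of its gene, Tmem86b from chr7:4630483-4630732 (250 bases, minus strand) and Tmem86a from chr7:47050390-47050600 (211 bases, plus strand, ending where an annotated exon begins).
Tmem86b: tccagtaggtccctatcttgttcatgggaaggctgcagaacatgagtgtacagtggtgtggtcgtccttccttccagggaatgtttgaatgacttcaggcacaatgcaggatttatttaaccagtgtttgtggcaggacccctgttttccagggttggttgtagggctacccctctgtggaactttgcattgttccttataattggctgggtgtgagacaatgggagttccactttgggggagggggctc
Tmem86a: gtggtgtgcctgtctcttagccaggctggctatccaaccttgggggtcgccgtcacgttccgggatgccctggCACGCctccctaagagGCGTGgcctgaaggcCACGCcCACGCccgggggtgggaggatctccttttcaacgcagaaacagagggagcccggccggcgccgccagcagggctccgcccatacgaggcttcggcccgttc

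In the 250 bases before the RefSeq start, Tmem86b and Gnpat held no GCGTG on either strand. Tmem86a held 4 matches, 1 on the strand of the gene and 3 on the other, Agps held 2 and Far1 held 1. Cyp1a1 held 1 in its own window. Of 32851 RefSeq start windows of this length 28.2% held at least 1 match, so matches are common. A match is a description of letters and not a binding site, and the lack of one says only that these letters are not in this window. GENCODE places further transcript starts of Tmem86b upstream and downstream of the RefSeq start, and their windows were not searched.

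Tmem86b was higher in ICZ than in vehicle mice in every fraction, by 2.23 times in F1 and by 1.33 times in F5. In F1 the vehicle libraries had 84.2, 80.9 and 66.0 CPM in mice 1, 2 and 3, and the 2 ICZ libraries had 191 and 153. In F2 the vehicle values were 88.1, 74.5 and 49.5 CPM and the ICZ values 158, 95.3 and 92.3. In these 2 fractions the lowest ICZ library lay above the highest vehicle library. In F3 the vehicle libraries had 74.6, 65.4 and 51.6 CPM and the ICZ libraries 118, 112 and 86.6. In F4 the vehicle libraries had 68.5, 44.5 and 41.1 CPM and the ICZ libraries 102, 86.6 and 75.9. Here too the groups did not overlap. In F5 they did: 76.1, 36.3 and 40.7 CPM in vehicle and 95.3, 60.0 and 48.7 in ICZ mice, so that 2 ICZ libraries lay below the highest vehicle library.

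The group means were 77.0 ± 9.67 CPM (SD, n = 3) in vehicle and 172 ± 27.5 (SD, n = 2) in ICZ mice in F1. In F2 they were 70.7 ± 19.6 and 115 ± 37.3 CPM (SD, n = 3 each). In F3 they were 63.9 ± 11.6 and 105 ± 16.6 CPM (SD, n = 3 each), and in F4 51.4 ± 14.9 and 88.0 ± 12.9 (SD, n = 3 each). In F5 the means of 51.0 ± 21.8 and 68.0 ± 24.3 CPM (SD, n = 3 each) lay within one SD of each other. The ratio of the means was 1.63 for F2, 1.65 for F3 and 1.71 for F4.

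**Figure D1:**
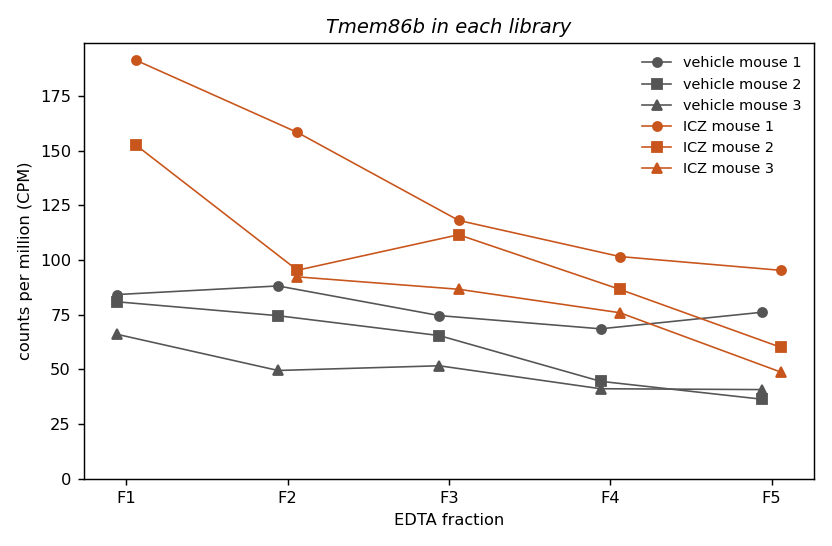
Tmem86b in CPM (vertical axis, from 0) in each of the 29 libraries, by EDTA fraction (horizontal axis), with 1 line per mouse, grey for vehicle and orange for ICZ. ICZ libraries lie above all vehicle libraries of the same fraction in F1 to F4 and mix with them in F5, where the ICZ values are 48.7 to 95.3 and the vehicle values 36.3 to 76.1.

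These gaps are what the gene was picked for, and the counts around it are given as background. Every ICZ library was above every vehicle library for 10.2% of 12335 genes tested in F1. The share was 10.7% for F2, 8.97% for F3, 3.14% for F4 and 2.78% for F5. Of 11450 genes tested in F1 to F4 alike, 10 (0.0873%) were separated this way in each of the 4 fractions. Besides Tmem86b these were the AHR targets Cyp1a1 and Nqo1, the water channel gene Aqp8, the cytochrome P450 gene Cyp2j6, and Acta1, Fbxw9, Pcp4l1, Rap1gap2 and Tef. The other 9 were listed after their values were seen.

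The fitted log2 fold changes of Tmem86b, ICZ over vehicle, were 1.17 ± 0.14 (SE) for F1, 0.66 ± 0.26 for F2, 0.70 ± 0.15 for F3 and 0.81 ± 0.19 for F4. In F5, which the rule did not use, it was 0.47 ± 0.35 with an adjusted p of 0.999966 (edgeR quasi-likelihood test). None of 12244 genes passed that test (0%), and 342 had an unadjusted p under 0.05. Without ICZ replicate 1, whose F5 library stands apart, the log2 fold change was 0.08 with an adjusted p of 0.970 (edgeR). That fit kept vehicle replicate 1, the highest vehicle library in F5. Without vehicle replicate 1 instead, the log2 fold change was 0.88. The 95% interval over all 6 mice ran from 0.797 to 2.42-fold. These are the same mice as in F1 to F4, and F5 is no independent set of animals. Whether the ICZ effect differed between fractions was not tested for Tmem86b, since the rule used 4 of the 5 fractions.

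Replicate numbers were taken to pair the mice, since libraries of the same number deviated together from their group means in vehicle and ICZ. The labels state no such pairing, and it was inferred from these same data. Sample titles carry WT3 for replicate 2 and WT4 for replicate 3 in both treatments. For replicate 1 they carry WT1 in vehicle and WT2 in ICZ mice, and what these numbers stand for is not stated. With the number as a block the Tmem86b estimate in F5 was 0.48 ± 0.17 with a 95% interval of 1.08 to 1.81-fold. The adjusted p was 0.984 (edgeR), and 8 genes (0.0653%) passed. The interval over the single gene lay above 1, and the test over all genes was not passed. Over the 14 pairs of libraries with the same number and fraction, which come from 3 pairs of mice, Tmem86b was higher in the ICZ library in 14. The ratio ran from 1.19 to 2.27, with a median of 1.69. In F1 to F4 the direction of every pair follows from the lack of overlap for which the gene was picked. Only the F5 pairs were free to differ, and their ratios were 1.25, 1.65 and 1.19 for numbers 1, 2 and 3. Mouse 1 was the highest of its treatment in all 5 fractions of both treatments.

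With F2 to F5 added up per mouse, the vehicle mice had 78.6, 56.0 and 46.3 CPM of Tmem86b and the ICZ mice 121, 87.3 and 78.9. The lowest ICZ mouse and the highest vehicle mouse differed by less than 1 CPM, so the groups touch at their edges, and 5.12% of 15497 genes were higher without overlap in these sums. Within pairs of the same number the ratios were 1.53, 1.56 and 1.71. The log2 fold change was 0.67 ± 0.23 (SE), and 0.68 ± 0.07 with the replicate number as a block. Cyp1a1 in the same sums was 75.0, 28.4 and 13.4 CPM in ICZ mice 1, 2 and 3, the same order as Tmem86b. The vehicle mice of the same numbers had that order of Tmem86b too, at 3, 1 and 0 reads of Cyp1a1.

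Cell composition was read from marker sums, and in bulk samples fewer cells of a type and less RNA per cell cannot be told apart. The 10 absorptive enterocyte markers, all detected, summed to 31014 to 41124 CPM in vehicle F1 and 39852 to 42572 in ICZ F1, so the treatments overlapped there. In F4 the sums were 15382 to 30998 CPM in vehicle and 20238 to 21462 in ICZ libraries. The 6 Paneth cell markers summed to 3092 to 6002 CPM in vehicle F1 and 2665 to 3970 in ICZ F1. In F2 their sums were 5281 to 7131 CPM in vehicle and 5633 to 16764 in ICZ mice. Other lists separated the treatments, as did many single genes. In F1, 10.2% of genes were higher and 9.67% lower with ICZ without overlap. The share higher was 10.7% for F2 and 2.78% for F5, and the share lower was not counted for F2 to F5. The counts of lists were not tested against these shares. Among 15 lists, 2 were higher with ICZ without overlap in F1: goblet at 11376 to 15636 CPM in vehicle and 17130 to 18188 in ICZ libraries, and enteroendocrine at 752 to 864 and 938 to 1053. The stem cell list was lower in F1, at 217 to 309 CPM in vehicle and 168 to 215 in ICZ libraries. In F2 the enteroendocrine list was higher (561 to 673 against 703 to 812 CPM). T cell markers were lower there (326 to 772 against 126 to 261), as were myeloid markers (10.3 to 16.0 against 7.14 to 9.11). In F3 T cell markers (178 to 320 against 149 to 174 CPM) and MHC class II genes (208 to 852 against 148 to 195) were lower. MHC class II genes were also lower in F4 (198 to 800 against 139 to 164 CPM) and F5 (228 to 656 against 166 to 182). In F5 the tuft list (20.9 to 25.6 against 32.2 to 73.6 CPM) and the stroma and muscle list (11.6 to 14.4 against 24.5 to 118) were higher with ICZ. The part of these markers in the Tmem86b difference was not tested.

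The neighbours of Tmem86b were read for comparison. Gm44877, the antisense gene, had 1.83 to 8.80 CPM in vehicle and 3.89 to 12.0 in ICZ libraries. Its log2 fold change in the summed comparison was 0.90 ± 0.25 with an adjusted p of 0.846 (edgeR). It did not pass, where 0 of 15497 genes did. Every ICZ library was above every vehicle library in F1 to F3, and the treatments overlapped in F4 and F5. The vehicle and ICZ ranges were 4.10 to 7.60 and 9.88 to 11.9 CPM in F1. In F2 they were 1.91 to 8.80 and 8.84 to 9.89 CPM, and in F3 3.55 to 6.48 and 9.86 to 12.0. The shares of all genes higher without overlap were 10.2%, 10.7% and 8.97% in F1, F2 and F3. Ppp6r1, a regulatory subunit of protein phosphatase 6 encoded upstream, had a log2 fold change of 0.00 ± 0.08 in the sums, with an adjusted p of 0.997 (edgeR).

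Tmem86a, the other lysoplasmalogenase, did not pass the test of ICZ against vehicle. Its levels in F1 were 155, 166 and 83.5 CPM in vehicle and 134 and 111 in ICZ mice. In F4 they were 174, 176 and 112 CPM in vehicle and 116, 109 and 136 in ICZ mice. The groups overlapped in all 5 fractions, and over the 14 same-number pairs Tmem86a was higher with ICZ in 6. In the sums its fold was 0.93, with a 95% interval of 0.701 to 1.23 and an adjusted p of 0.955 (edgeR). With the replicate number as a block, Tmem86a in F1 had a log2 fold change of -0.37 ± 0.13 and a 95% interval of 0.637 to 0.934-fold, but an adjusted p of 0.432 (edgeR).

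None of the 4 members other than Tmem86b passed the test of ICZ against vehicle in any fraction or in the sums, over 24 tests. Nor did most genes: the share that passed was 0% of 15497 genes in the sums, 0.0324% for F1, 0.0165% for F2, 0.00815% for F3, and 0% for F4 as well as F5. By the same edgeR tests 886 genes had an unadjusted p under 0.05 in the sums. In F1 to F5 these were 542, 1455, 1122, 349 and 342 genes. Past the adjusted threshold, the members' count of 0 is near the share over all genes. DESeq2's Wald test called 13 genes in the sums, 24 in F1, 124 in F2, 20 in F3, 4 in F4 and 5 in F5. It called no member among the 4. With the replicate number as a block these shares were 1.49%, 0.365%, 1.82%, 0.187%, 0.0413% and 0.0653% in the same order, and again no member passed. The smallest adjusted p of a member was 0.449, and 0.370 with the block (edgeR), both of Far1 in F2.

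The 95% intervals bound the ICZ effects that these data leave possible. For Agps, the alkyl transferase, the fold in the sums was 1.00 with a 95% interval of 0.845 to 1.18. For Gnpat, the first enzyme of the pathway, it was 1.08, from 0.897 to 1.31. For Far1, which supplies fatty alcohol, it was 0.91, from 0.628 to 1.32, on 5 to 27 reads per library. Agps had 53 to 143 reads per library, Gnpat 52 to 221, Tmem86a 447 to 1365 and Tmem86b 273 to 978. Within single fractions the Far1 interval was as wide as 0.331 to 2.31-fold in F1.

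Far1 in F2 had 1.69, 2.56 and 3.53 CPM in vehicle and 1.26, 1.86 and 1.21 in ICZ mice. The groups overlapped, and the log2 fold change of -0.90 ± 0.45 did not pass. Gnpat in F1 was the one case where members other than Tmem86b did not overlap: 16.2, 14.2 and 16.1 CPM in vehicle and 12.9 and 12.8 in ICZ mice. In that fraction 9.67% of genes were lower with ICZ without overlap, and the log2 fold change of -0.26 ± 0.21 had an adjusted p of 0.995 (edgeR). The difference of the ICZ effect between fractions passed for none of the 4 members, with adjusted p values of 0.938 to 0.966 (edgeR), against 1 of 14067 genes (0.00711%).

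**Figure D2:**
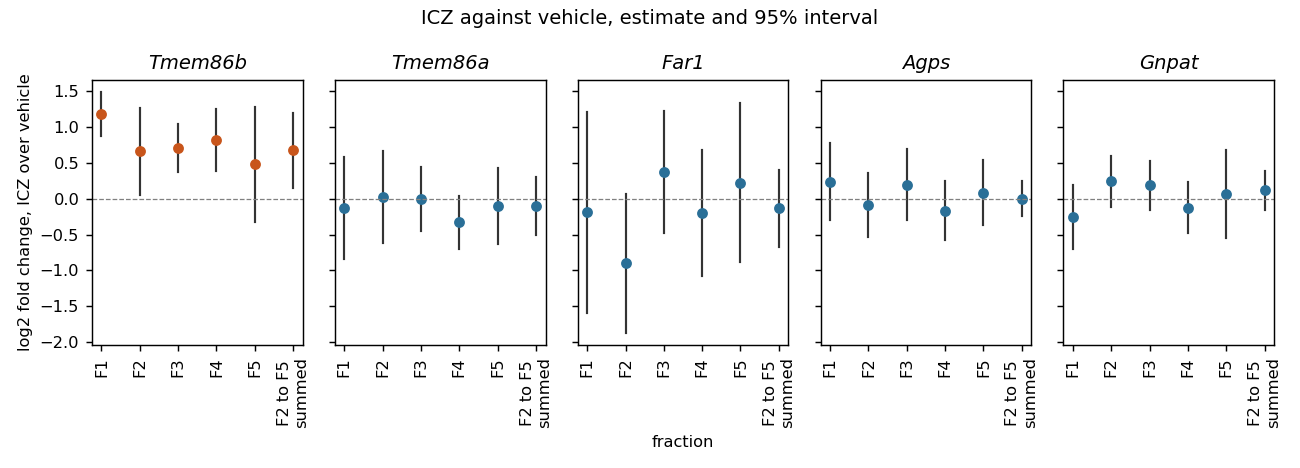
Log2 fold change of ICZ over vehicle (vertical axis) of each member in F1 to F5 and in F2 to F5 summed per mouse (horizontal axis), with points for the edgeR estimate without the replicate block and lines for its 95% interval. The 4 right panels hold 0 inside every interval of this fit. The estimates of Tmem86b lie between 0.47 and 1.17, and those of F1 to F4 show the difference the gene was picked for. Its F5 interval, from -0.33 to 1.28, holds 0.

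Along the fractions of vehicle mice, Gnpat rose from F1 to F5, Tmem86b was lower in F5 than in F1, and Tmem86a, Far1 and Agps did not pass the test. The log2 fold change of Tmem86b was -0.64 ± 0.16 (edgeR estimate with the mouse as a block). It is given with no test, since its F1 values in vehicle mice are among those that chose the gene. It was higher in F1 than in F5 in 3 of 3 vehicle mice, by 1.11, 2.23 and 1.62 times. Gnpat went the other way, with 16.2, 14.2 and 16.1 CPM in F1 and 21.5, 17.7 and 28.6 in F5 of the same mice. Its lowest library was F1 in 3 of 3 vehicle mice. The log2 fold change was 0.53 ± 0.17, with an adjusted p of 0.0249 (edgeR with the mouse as a block).

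The 1 call among the 4 members tested stands beside 28.1% of 13164 genes, 14.9% higher and 13.2% lower, so its share is near the background. The call of Gnpat was lost without vehicle replicate 2 (adjusted p 0.0585), without vehicle replicate 3 (0.335) and without the filter on low counts (0.0640), all by edgeR. Its log2 fold change stayed positive, from 0.38 to 0.60, and that of Tmem86b stayed negative, from -0.94 to -0.44, over the alternatives run.

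The order of the vehicle means of Tmem86b was F1, F2, F3, F4 and F5 from high to low, and the 3 mice overlapped between all neighbouring fractions. The log2 fold changes were -0.15 ± 0.16 for F2 against F1, -0.14 ± 0.16 for F3 against F2, -0.34 ± 0.16 for F4 against F3 and -0.01 ± 0.16 for F5 against F4. These too are given with no test. None of the other 4 members passed in any of these steps. Nor did many genes, with 0%, 0%, 0.41% and 0.0684% passing in the same order. The unadjusted p was under 0.05 for 1444 genes from F1 to F2 and for 1314 from F2 to F3.

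In ICZ mice Tmem86b was also higher near the start of the release. From F2 to F5 the level went from 158 to 95.3 CPM in mouse 1, from 95.3 to 60.0 in mouse 2 and from 92.3 to 48.7 in mouse 3, a log2 fold change of -0.72 ± 0.14. This comparison shares the libraries that chose the gene and is given with no test. None of the other 4 members passed, against 17.2% of 13328 genes (6.69% higher and 10.5% lower). The 2 ICZ mice with an F1 library had their highest Tmem86b there, and their lowest Gnpat, at 12.9 and 12.8 CPM. The F5 library of ICZ replicate 1 had 13.9 CPM of Gnpat, against 28.0 and 27.3 in the other 2 mice. Without this library, Tmem86b from F2 to F5 in ICZ mice came to -0.88.

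Agps stayed between 8.50 and 18.4 CPM and Far1 between 0.692 and 3.53 CPM over all libraries. Agps in vehicle mice was 13.9 ± 3.94 CPM in F1 and 13.7 ± 0.937 in F5 (SD, n = 3 each). Far1 was 1.75 ± 0.938 CPM in F1 and 1.81 ± 0.628 in F5 (SD, n = 3 each). Tmem86a was 135 ± 45.0 CPM in F1 and 132 ± 46.2 in F5 (SD, n = 3 each), and vehicle replicate 3 was the lowest of the vehicle mice in every fraction. From F1 to F5 the fold of Tmem86a was 1.01, with a 95% interval of 0.808 to 1.25, and that of Agps 1.01, from 0.723 to 1.40.

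**Figure D3:**
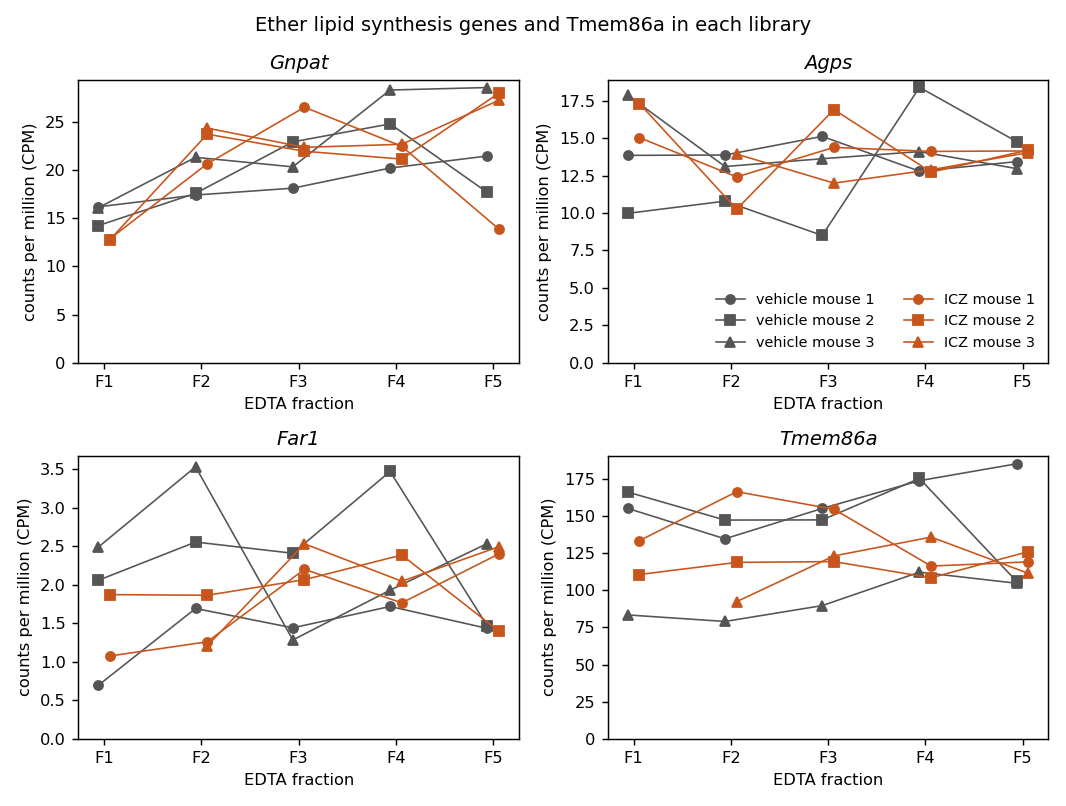
Gnpat, Agps, Far1 and Tmem86a in CPM (vertical axes, each from 0) in each of the 29 libraries, by EDTA fraction (horizontal axis), with 1 line per mouse, grey for vehicle and orange for ICZ. Gnpat is at its lowest in F1 in each of the 5 mice with an F1 library, and grey and orange points mix in the other panels.

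The marker sums moved along the same fractions. The enterocyte sum was 31014 to 41124 CPM in vehicle F1 and 10976 to 23280 in vehicle F5. The 10 genes of the dissociation stress list, immediate early and heat shock genes, summed to 475 to 1113 CPM in vehicle F1 and 2787 to 4990 in vehicle F5. The 6 stem cell markers summed to 217 to 309 CPM in F1 and 470 to 1012 in F5 of vehicle mice. All listed genes of these 3 sets were detected, and their part in the changes of Tmem86b and Gnpat was not tested.

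The rest of the pathway was read from 4 lists: ether bond synthesis in the peroxisome (5 genes), completion in the endoplasmic reticulum (12 genes in the table), breakdown and remodelling (18 genes), and peroxisome import and membrane (17 genes). With ICZ, 0 of 49 tested genes passed in the sums, Tmem86b left aside, and 0 of 45 or 46 in each single fraction, with and without the replicate number as a block. The medians of the 4 lists in the sums were 0.00, -0.06, -0.03 and 0.06 on the log2 scale, and that of all 15497 genes was 0.01. In F3 the count changed with 2 settings. Without vehicle replicate 1, Pex5, the import receptor of the peroxisome, and Cept1, a choline and ethanolamine phosphotransferase, passed as higher, beside 498 of 12586 genes. Without the filter on low counts Pex5 passed, beside 221 of 24321 genes. Both were named after their values were seen.

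From F1 to F5 of vehicle mice 14 of 45 pathway genes passed (31.1%), 3 higher and 11 lower, against 28.1% of all genes, with Tmem86b left aside. In ether bond synthesis 2 of 5 genes rose and 1 fell, with a median of 0.10 against 0.02 over all 13164 genes. Far2, the other fatty acyl-CoA reductase, rose by 0.83 ± 0.15 on the log2 scale (adjusted p 0.000672, edgeR), from 60.4 ± 16.8 to 106 ± 13.0 CPM (SD, n = 3 each). Far1, which makes the same kind of alcohol, had a log2 fold change of 0.10 ± 0.45 that did not pass.

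Completion in the endoplasmic reticulum had 0 genes that rose and 3 of 11 that fell, with a median of -0.39. Etnk1, an ethanolamine kinase at the head of the pathway that supplies the head group, fell by 0.78 ± 0.17 on the log2 scale, from 102 ± 8.02 to 59.7 ± 17.2 CPM (SD, n = 3 each). In breakdown and remodelling 1 of 13 genes rose and 4 fell, with a median of -0.17. Agmo, the monooxygenase that cleaves alkylglycerols, fell by 0.77 ± 0.17. Aldh3a2, which oxidises the fatty aldehydes that such cleavage and the lysoplasmalogenases release, fell by 0.71 ± 0.16.

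The untested value of Tmem86b, -0.64 ± 0.16, was next to these in size. Pla2g4a, a cytosolic phospholipase A2 that frees fatty acids from phospholipids, rose by 1.13 ± 0.39 from 2.09 ± 0.442 to 4.83 ± 2.92 CPM (SD, n = 3 each). Its adjusted p was 0.0386 (edgeR). Among peroxisome import and membrane genes 3 of 16 were called, all of them lower, and the list had a median of -0.13. Pex11a, which promotes peroxisome division, fell by 0.61 ± 0.11. Of the 14 calls, 7 were kept without vehicle replicate 2 and 3 without vehicle replicate 3, when 886 of 13290 genes passed in all. Of Pla2g4a, Far2, Etnk1, Agmo, Aldh3a2 and Pex11a, the 6 with the largest change, Far2 and Pex11a passed without vehicle replicate 3.

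**Figure D4:**
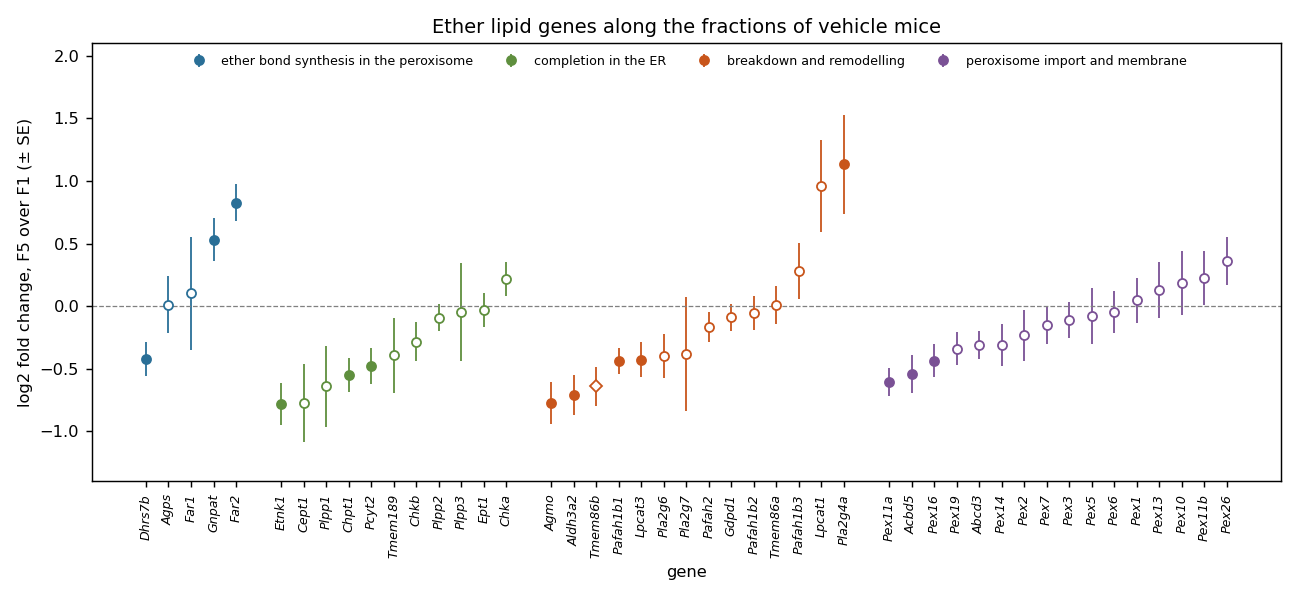
Log2 fold change of F5 over F1 in vehicle mice (vertical axis) of 45 tested pathway genes and of Tmem86b (horizontal axis), grouped by list, with bars for the SE and filled points for an adjusted p under 0.05. Far2 and Gnpat are the filled points above 0 in ether bond synthesis, and Agmo, Aldh3a2 and Tmem86b, the latter an open diamond because it was not tested, are the lowest of the breakdown genes.

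In ICZ mice, from F2 to F5, 14 of 46 pathway genes passed (30.4%), 1 higher and 13 lower, against 17.2% of 13328 genes. Aldh3a2 fell by 0.73 ± 0.14 and Agmo by 0.69 ± 0.13 on the log2 scale, as in vehicle mice from F1. Pex11a fell by 0.54 ± 0.10. Pex14, a part of the import channel, fell by 0.54 ± 0.17, and Chpt1, a choline phosphotransferase, by 0.53 ± 0.11. Plpp3, a lipid phosphate phosphatase, rose by 1.09 ± 0.34, from 5.10 ± 0.568 to 10.3 ± 2.79 CPM (SD, n = 3 each). In vehicle mice it had 4.76 ± 1.12 CPM in F2 and 4.86 ± 2.12 in F5 (SD, n = 3 each). The stroma and muscle list summed to 7.55 to 9.11 CPM in F2 and 24.5 to 118 in F5 of ICZ mice. Its part in the rise of Plpp3 was not tested. Of the 14, 6 were kept without ICZ replicate 2 and 4 without ICZ replicate 3. Pex14 was lost without any one of the 3 ICZ mice and without the F5 library of ICZ replicate 1, and Plpp3 was lost without ICZ replicate 3.

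The genes whose pattern was most like that of Tmem86b over the 29 libraries were Aqp8, Slc5a12, Bco1, Dnah2 and Cyp2j6, among 9304 genes ranked. Pearson correlations of log2 CPM were 0.91 for Aqp8, Slc5a12 and Bco1, 0.90 for Dnah2 and 0.87 for Cyp2j6. Over the 10 group means they were 0.97, 0.95, 0.97, 0.95 and 0.96 in the same order. The libraries share mice, fractions and treatments, and Tmem86b was picked for its pattern, so these are descriptions. Of the members, Tmem86a had a correlation of 0.25 with Tmem86b, Agps 0.02, Far1 -0.34 and Gnpat -0.47. Over deviations of the libraries from their group means these values were 0.72, -0.10, -0.37 and -0.53 in the same order. Those of Aqp8, Slc5a12, Bco1, Dnah2 and Cyp2j6 were 0.77, 0.85, 0.75, 0.91 and 0.60. The deviations repeat the same mice over fractions, so differences between mice enter them, and their part was not tested.

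Bco1, the enzyme that splits beta-carotene into retinal, went from 40.0 ± 12.4 CPM in vehicle F1 to 204 ± 47.5 in ICZ F1 (SD, n = 3 and 2). Slc5a12, a sodium-coupled monocarboxylate transporter, was at 34.7 ± 9.65 CPM in vehicle F1 and 65.9 ± 16.4 in ICZ F1. Cyp2j6, an epoxygenase, was at 146 ± 24.1 and 212 ± 18.5 CPM. Aqp8 had 4.14 ± 1.31 and 12.7 ± 0.289 CPM, and Dnah2, an axonemal dynein heavy chain, 21.2 ± 5.70 and 42.2 ± 13.2 CPM. All 5 had their highest mean of each treatment in F1 and their lowest in F5 among F1, F2 and F5.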

How the data were processed

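RNA from 5 EDTA fractions of 6 mice was sequenced as QuantSeq 3' end libraries, per the labels' protocols. The authors deposited 1 table of whole-number read counts per gene, not normalized, with 54146 genes. Per the submitters' processing notes the tools were FastQC 0.11.2, BWA 0.7.17-r1188, SAMtools 1.10 and HTSeq 0.11.2, with build GRCm38.p6 (mm10). Which annotation release and strand setting were used, and whether reads carried molecular identifiers, is not given in the sources used here. If they did not, reads are not independent molecules. Lines of the table that name no gene stayed out: 9.15% to 14.7% of reads had no feature, 3.61% to 5.10% were ambiguous, 18.0% to 26.5% were of low alignment quality and 2.63% to 7.31% were unaligned. Counts of a 3' end library are not divided by gene length, so levels are compared between libraries and not between genes.

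From these counts CPM were computed with TMM library sizes (edgeR 4.0.16, R 4.3.3), and log2 CPM with a prior count of 2. Each comparison used filterByExpr, TMM and edgeR's robust quasi-likelihood F test over all genes kept, with Benjamini-Hochberg adjustment at 0.05. Each SE was computed as the size of the log2 fold change divided by the root of F, and intervals are 95%. ICZ was compared with vehicle in each fraction and in F2 to F5 summed per mouse, without a block. Comparisons along the fractions had the mouse as a block. Replicate numbers were taken to pair the mice because deviations from group means correlated at 0.381, 0.248 and 0.472 within numbers and from -0.423 to -0.0249 between them. Deviations from a group mean sum to 0, so negative values between numbers are partly built in. The labels name no pairing. Within groups 28 pairs of libraries had a chi-square per degree of freedom of 5.18 to 111, so each counted as 1 replicate. Alternatives were DESeq2 1.42.0 (Wald test), its size factors, no filter on low counts, the fit with or without the replicate block, sums of F2 to F4, and leaving out each mouse. Leaving out the F5 library of ICZ replicate 1 was chosen after seeing the data. The fits were tested on simulated data.

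The members, gene lists and tests were chosen with earlier results of these data known. Tests of Tmem86b along the fractions of vehicle mice, planned at first, were left out because its values in those libraries chose the gene. Named pathway genes were those past the threshold, or the 6 with the largest absolute log2 fold change where more passed. Genes most like Tmem86b were the 5 with the highest correlation, with a mean of at least 5 CPM and no predicted genes. The sample labelled as undetermined entered no comparison. Positions come from GENCODE M21, and sequences from RefSeq (GRCm38.p6).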

Additional observations from a re-analysis of the deposited data

Results flagged for a closer look

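One sample, whose labels give neither treatment nor fraction, entered no comparison. It had 92.6 CPM of Tmem86b, above the 89.0 of the highest vehicle library when all 30 libraries were scaled together. It also had 16.8 CPM of Cyp1a1, against at most 0.188 in vehicle libraries. Its other members were within the range of both treatments: Tmem86a was at 113 CPM, Far1 at 2.39, Agps at 13.3 and Gnpat at 24.6.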

How the results depend on the processing

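The number of members past the threshold stayed at 0 under all alternatives run in every ICZ comparison, in the steps between neighbouring vehicle fractions and in F5 against F2 of ICZ mice. In F5 against F1 of vehicle mice it was 1 of 4 tested (Gnpat), but 0 without the filter on low counts and between 0 and 1 with 1 mouse left out. Without the replicate block it was 1. The value of 0 came when either replicate 2 or replicate 3 of the vehicle mice was left out, with fewer samples in the fit. The replicate block changed no call of a member in an ICZ comparison. Pathway genes called from F1 to F5 came to 14, but 9 without the replicate block and 3 to 15 with 1 mouse left out, and from F2 to F5 in ICZ mice to 14, but 4 to 17 with 1 mouse or library left out.

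The log2 fold change of Tmem86b with ICZ kept its sign under all alternatives: 0.98 to 1.33 for F1, 0.37 to 0.85 for F2, 0.57 to 0.83 for F3, 0.68 to 1.08 for F4, 0.08 to 0.88 for F5 and 0.45 to 0.91 for the sums. It was 0.37 in F2 and 0.08 in F5 without ICZ replicate 1, and in F5 the adjusted p (edgeR or DESeq2) lay between 0.896 and 0.999966.

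Among the alternatives run, signs turned only for estimates that did not pass a test or were not tested, and the cause was not tested. Agps with ICZ in the sums had a log2 fold change of -0.0033 with DESeq2 size factors, -0.0025 without the filter, -0.0030 with the DESeq2 Wald test and -0.026 with F2 to F4 added, and -0.036 to 0.021 with 1 mouse left out. Tmem86a in the sums ran from -0.29 to 0.048 with 1 mouse left out. From F1 to F5 of vehicle mice Tmem86a and Agps had -0.0097 and -0.0073 with DESeq2 size factors, -0.022 and -0.020 without the filter, -0.0091 and -0.0058 with the DESeq2 Wald test, and -0.024 and -0.012 without the replicate block. With 1 mouse left out Tmem86a ran from -0.17 to 0.28, Agps from -0.28 to 0.28 and Far1 from -0.22 to 0.35. From F2 to F5 of ICZ mice Tmem86a had 0.027 with DESeq2 size factors and 0.027 with the Wald test. With 1 mouse or the F5 library of ICZ replicate 1 left out it ran from -0.11 to 0.18, and Gnpat from -0.041 to 0.30. Tmem86b from F4 to F5 of vehicle mice had 0.0052 with DESeq2 size factors, 0.013 without the replicate block, and -0.10 to 0.088 with 1 mouse left out. Depth limits Far1 most, at 5 to 27 reads per library.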
